A study of Mus musculus with 40 samples.

Results

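Integrin subunits are described here across a time course of heart scar formation in mice. Integrins are receptors in the cell membrane that bind the extracellular matrix or other cells, and each receptor is a pair of an alpha and a beta chain. The pair sets the ligand: alpha 1 and alpha 11 with beta 1 bind collagens, alpha 5 with beta 1 binds fibronectin, alpha 6 and alpha 7 with beta 1 bind laminins, and alpha v pairs bind proteins with an RGD motif. Beta 2 is the chain of leukocyte integrins. In the heart, beta 1 integrins tie muscle cells to their basement membrane, and fibroblasts use collagen, fibronectin and alpha v receptors to hold and pull on scar matrix.

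The members are the named genes Itga1, Itga5, Itga6, Itga7, Itga11, Itgav, Itgb1, Itgb2, Itgb3 and Itgb5, all 10 of which were found among the 11450 genes of the deposited table. All 10 passed the filter on low values, which asked for at least 1 RPKM in 4 of the 40 libraries and left 11390 genes. RPKM are read numbers per length of gene and size of library, so levels can be set beside each other between genes. The mice were adult C57BL/6, an inbred laboratory strain, with a permanent tie around the left anterior descending coronary artery. On each of days 3, 7, 14, 21 and 42 after surgery, 4 mice gave a library from the injured, scarred part of the heart and another from an uninjured part away from it. Both regions therefore came from ligated hearts, and no heart without surgery was analysed here. Only the mice of day 42 carry labels that start with B, so that day and whatever the letter stands for, which the labels do not say, cannot be told apart.

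Reads worked back from the RPKM summed to between 10966454 and 22778788 per library, and library medians lay between 5.80 and 6.19 RPKM. Among the members, Itgb3 had the fewest reads, from 43 to 1727 per library with a median of 218, and Itgb1 the most, from 9537 to 28197. Cardiomyocyte markers summed to between 1296 and 5710 RPKM in the injured and between 17500 and 27369 in the uninjured libraries, and all 8 were lower in the injured region on each day. Of 9 monocyte and macrophage markers, all 9 were higher in the injured region on days 3, 14, 21 and 42 and 8 on day 7. Of 8 fibroblast markers, 5 were higher and 2 lower on day 3 and all 8 were higher from day 7 on. None of the listed markers that the table holds was at 0 throughout a group, and 0 of 7 lymphocyte markers are in it. In bulk tissue, fewer cells of a type and less RNA per cell cannot be told apart.

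The genes lie on several chromosomes of the mm10 build, as annotated by GENCODE M21, and all are protein coding. The alpha chain genes are Itga1 (chromosome 13, 114953096 to 115101964), Itga5 (chromosome 15, 103344286 to 103366763), Itga6 (chromosome 2, 71745616 to 71858416), Itga7 (chromosome 10, 128933818 to 128958282), Itga11 (chromosome 9, 62677826 to 62783982) and Itgav (chromosome 2, 83724397 to 83806916). The beta chain genes are Itgb1 (chromosome 8, 128685654 to 128733200), Itgb2 (chromosome 10, 77530252 to 77565708), Itgb3 (chromosome 11, 104608000 to 104670476) and Itgb5 (chromosome 16, 33829665 to 33949338). Exons of Itga7 overlap those of Mettl7b, exons of Itgav those of Gm13684, both on the opposite strand, and exons of Itga1 those of Gm49395 on the same strand. These 3 neighbours are not rows of the table. Whether the counting used strand is not given in the sources used here, so reads of such partners could have been counted to these 3 members.

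Promoters are shown for Itga11 and Itgb5, which rose together in the injured region from day 3 to day 7, and for Itga5, which fell over the same step. RefSeq promoters (GRCm38.p6) were found for 6 of the 10 members, namely these 3 and Itga1, Itgav and Itgb1. Each line gives the 250 bases before the annotated start, 5′ to 3′ on the strand of the gene. Capitals mark matches, on either strand, to GGGCGG, the GC box bound by Sp factors. The other motifs searched were the TATA box TATAAA, the AP-1 motif TGANTCA and the TEAD motif GGAATG. In these 3 windows none of them was found.
Itga11, chr9:62677605-62677854, plus strand: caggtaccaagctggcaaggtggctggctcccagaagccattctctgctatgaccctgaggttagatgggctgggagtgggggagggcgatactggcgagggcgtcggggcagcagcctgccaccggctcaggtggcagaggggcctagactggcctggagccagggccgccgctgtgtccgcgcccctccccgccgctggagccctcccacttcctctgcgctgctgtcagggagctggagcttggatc
Itgb5, chr16:33829415-33829664, plus strand: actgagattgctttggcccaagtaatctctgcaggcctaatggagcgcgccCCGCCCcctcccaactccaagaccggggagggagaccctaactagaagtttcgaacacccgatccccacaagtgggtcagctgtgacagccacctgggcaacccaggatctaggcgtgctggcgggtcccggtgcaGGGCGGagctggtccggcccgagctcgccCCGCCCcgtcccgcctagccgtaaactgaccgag
Itga5, chr15:103366792-103367041, minus strand: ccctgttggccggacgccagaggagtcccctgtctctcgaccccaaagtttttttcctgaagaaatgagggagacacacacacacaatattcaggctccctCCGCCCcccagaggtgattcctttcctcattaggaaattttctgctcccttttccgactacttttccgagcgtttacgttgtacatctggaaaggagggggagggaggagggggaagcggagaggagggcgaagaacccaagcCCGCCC
The GC box was found 0 times in the Itga11 window, 3 times in that of Itgb5 and 2 times in that of Itga5. It was in 32.7% of the 32851 promoter windows of that table, against 12.4% for the TATA box, 6.75% for AP-1 and 12.6% for TEAD. The G and C content of the 3 windows was 68.4%, 65.2% and 55.6% in that order, against a median of 52.4%. The Itga11 window ends within the first exon of the GENCODE model of that gene. Itga1, Itgav and Itgb1 also rose in the injured region from day 3 to day 7, and their windows held the GC box 0, 0 and 1 times. The Itgb1 window also held 1 match to the TEAD motif. Itga11 and Itgb5 thus did not share the GC box in these windows.

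Most members were higher in the scar than in the remote region, and which of them led depended on the day. In limma fits with the mouse as a block, called at a Benjamini-Hochberg adjusted p under 0.05 over all genes tested, 8 members were higher and 1 lower at day 3, against 44.1% and 39.6% of all genes. At day 7 the counts were 7 higher and 3 lower (43.6% and 38.7% of all genes). They were 6 and 2 at day 14 (42.4% and 40.5%), 6 and 2 at day 21 (43.1% and 41%) and 7 and 2 at day 42 (40.5% and 38.7%). The median log2 difference of the members was 1.06, 1.65, 1.04, 0.86 and 0.65 on the 5 days, where that of all genes was between 0.03 and 0.06. Injured and uninjured values did not overlap for 9, 10, 8, 8 and 8 members on the 5 days, against 78.7%, 72%, 76.1%, 78.2% and 70.8% of all genes. The region difference depended on the day for 9 of 10 members by the interaction F test, all but Itga1, against 74.3% of all genes.

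Library scaling bears on the small differences. Dividing instead by each library's recovered reads moved the median gene to a log2 difference of 0.26 to 0.47, and higher calls made up 71.8%, 64.2%, 68.9%, 69.4% and 71.9% of all calls on days 3, 7, 14, 21 and 42. With the deposited values that share was 52.7%, 53%, 51.2%, 51.3% and 51.1%. Under that scaling 9, 7, 8, 8 and 8 members were higher and 0, 1, 1, 2 and 1 lower, against 63.1%, 54%, 59%, 59.7% and 61.1% of all genes higher and 24.8%, 30.1%, 26.6%, 26.3% and 23.9% lower. Quantile normalization gave 9, 7, 8, 8 and 8 members higher and 0, 1, 2, 2 and 2 lower, with between 39.1% and 43.3% of all genes higher and between 38.9% and 40.5% lower. Members for which this or another scaling changes a direction, a call or a size by over 1.5 times are named with those values. For Itga5, Itga11, Itgav, Itgb2, Itgb3 and Itgb5 the direction and the call were the same on every day under all alternatives run.

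**Figure D1:**
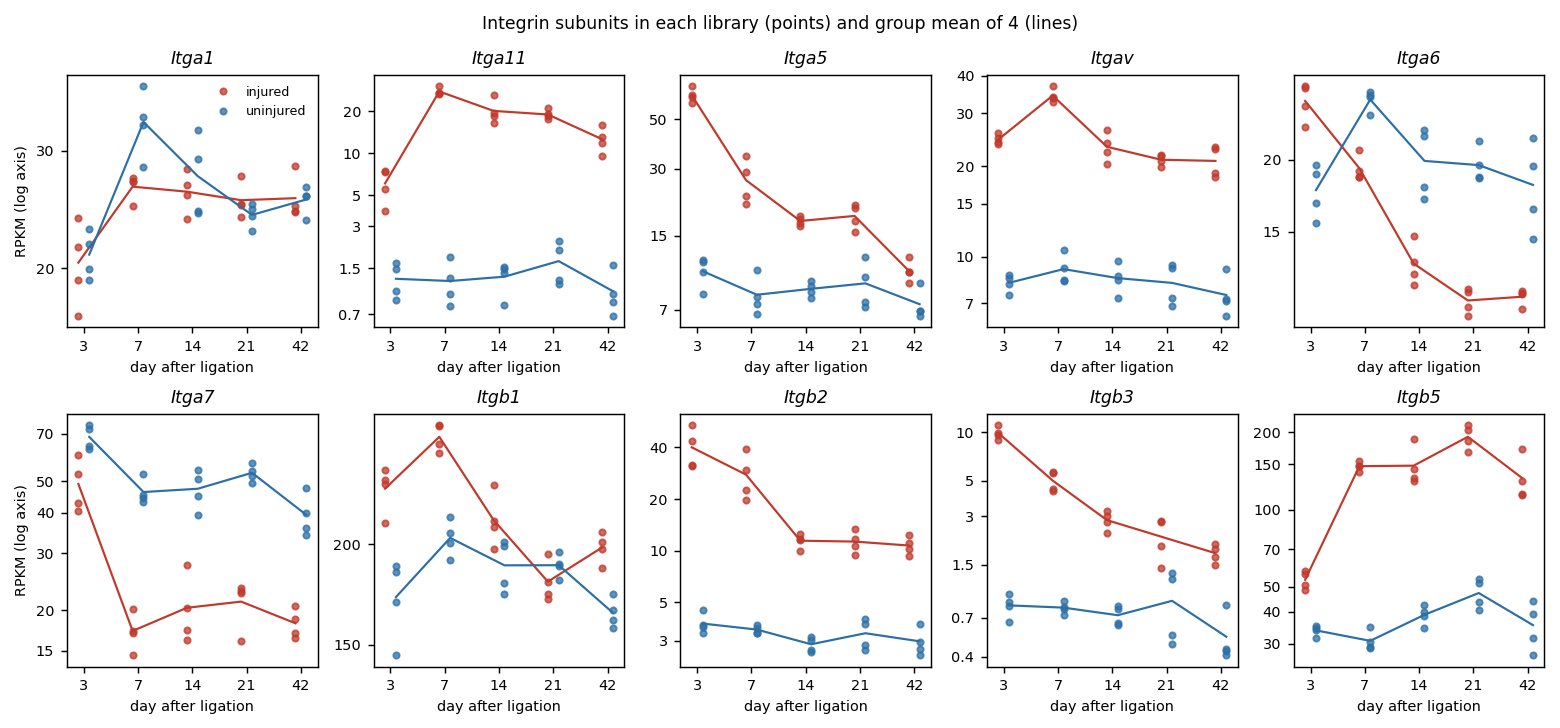
RPKM on a log axis against the day after ligation for each of the 10 members, with injured libraries in red, uninjured libraries in blue, 1 point per library and lines through the means of 4. Itga11 and Itgb5 rise from day 3 to day 7 in the injured region while Itga5, Itga7 and Itgb3 fall, and Itga1 overlaps between the regions on each day but day 7.

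**Figure D2:**
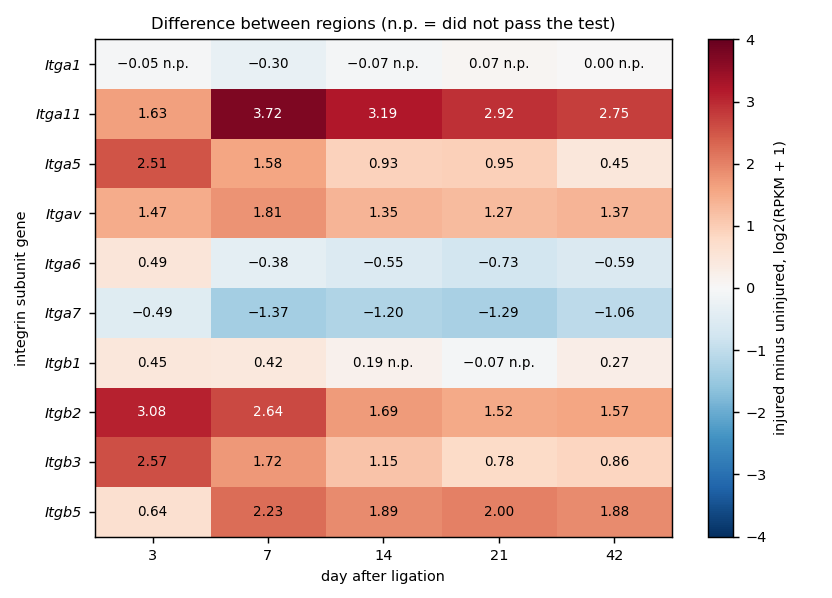
Injured minus uninjured log2(RPKM + 1) for each member and day from the limma fit with the mouse as a block, with red for higher and blue for lower in the injured region and n.p. where the test was not passed. The largest value is that of Itga11 at day 7, 3.72, and the lowest that of Itga7 at day 7, -1.37.

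The collagen receptor chains Itga11 and Itga1 differed from each other in their region differences. Itga11 encodes the alpha 11 chain, a receptor of fibrillar collagens found mainly on fibroblasts, and Itga1 encodes alpha 1, found on muscle, vessel and stromal cells. Injured Itga11 levels at day 3 were 7.38, 5.57, 7.499 and 3.86 RPKM in mice A4, A5, A7 and A8, against 1.64, 1.47, 1.03 and 0.887 in their uninjured regions. At day 7 they were 27.2, 30.4, 27.0 and 26.6 RPKM in mice A7, A9, A10 and A12, against 0.982, 1.27, 0.796 and 1.79. All 4 injured libraries lay above all 4 uninjured ones on both days, and the day 7 libraries lay above those of day 3.

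The later injured levels of Itga11 were 26.3, 18.4, 19.5 and 16.4 RPKM at day 14. They were 20.99, 18.4, 19.1 and 17.5 at day 21, and 11.8, 9.64, 12.997 and 16.05 in the last group. The uninjured levels stayed between 0.682 and 2.33 RPKM over these 3 days, so the regions again did not overlap. The log2 difference was 1.63, 3.72, 3.19, 2.92 and 2.75 from the first to the last day (SE 0.14 each; limma adjusted p at most 6.12e-10). The means of day 7 differed 22.9-fold. Within the injured region Itga11 rose by 2.06 ± 0.16 from day 3 to day 7 (limma adjusted p = 5.54e-09), the largest rise of a member at that step. It fell by 0.46 ± 0.16 to day 14 (adjusted p = 0.0276) and by 0.57 ± 0.16 from day 21 to day 42 (adjusted p = 0.0158). The day 7 to day 14 call ended without day 7 mouse A9 or without day 14 mouse A5, A6 or A11 (adjusted p from 0.0557 to 0.0943), and the last without day 42 mouse B3 (adjusted p = 0.0642). In the uninjured region Itga11 did not pass the test over the days (adjusted p = 0.315). In the injured region the summed fibroblast markers went from between 817 and 1083 RPKM at day 3 to between 2805 and 3386 at day 7 and between 1935 and 2171 at day 42, and their part in the course of Itga11 was not tested.

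Itga1 was at 20.4 ± 2.94 RPKM (SD, n = 4) in the injured and 21.0 ± 1.70 in the uninjured region at day 3. At day 7 it was at 26.5 ± 1.15 against 33.1 ± 3.73, lower in the injured region of all 4 mice (log2 difference of -0.30 ± 0.09 SE, limma adjusted p = 0.00287). On the other days it ranged from 23.7 to 28.5 RPKM in the injured and from 22.8 to 32.3 in the uninjured region and overlapped. Those differences, from -0.07 to 0.07, did not pass (adjusted p from 0.462 to 0.964). Its sign depends on scaling: with that scaling to recovered totals the difference was 0.45 at day 3 (adjusted p = 0.000278) and 0.34 at day 14 (0.00428), the day 7 call was lost (-0.06, adjusted p = 0.594) and days 21 and 42 were called higher (0.51 and 0.43). Quantile normalization gave 0.28, 0.08 and 0.41 at days 3, 7 and 14 (adjusted p = 0.0133, 0.477 and 0.000957), and 0.57 and 0.38 at days 21 and 42. Within regions Itga1 rose from day 3 to day 7 in both, by 0.37 ± 0.09 in the injured and 0.63 ± 0.09 in the uninjured region (limma adjusted p = 0.00108 and 0.000187).

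A single factor applied to a whole library does not bear on the ratio of 2 genes in it. Quantile normalization can change such a ratio, and the ratios were not recomputed under it. The log2 ratio of Itga11 to Itga1 was -4.83 ± 0.476 (SD, n = 4) in the uninjured and 0.07 ± 0.085 in the injured region at day 7, where the 4 injured libraries held about as much of the one as of the other per length. At day 3 the injured ratio was -1.79 ± 0.649 and at day 42 -1.03 ± 0.236, against -4.10 ± 0.304 and -4.70 ± 0.574 in the uninjured region. The ratio was higher in the injured region in 20 of 20 mice, by 3.68 ± 0.981 (SD) on average. A two-sided sign-flip permutation test over mice gave p = 1e-05, the smallest that 100000 resamples can give, and the same after Benjamini-Hochberg adjustment over the 3 ratios tested. As Itga11 was far higher in the scar of every mouse and Itga1 differed little, the test adds no separate support to those values. The other collagen receptor chains among the integrins, Itga2 and Itga10, were low. Itga2 was between 1.81 ± 0.417 and 2.26 ± 0.092 RPKM in the injured region, and Itga10 rose from 0.392 ± 0.112 at day 3 to 1.44 ± 0.193 at day 21. Both were higher than in the uninjured region on all 5 days (limma adjusted p at most 0.000646), though quantile normalization ended the day 3 call of Itga10 (0.10, adjusted p = 0.129).

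Itga5 encodes alpha 5, the chain of the main fibronectin receptor. At day 3 it was at 70.3, 59.0, 63.8 and 62.7 RPKM in the injured regions of mice A4, A5, A7 and A8, against 11.5, 8.22, 11.7 and 10.3 in the uninjured regions. At day 7 the injured levels were 20.8, 22.7, 34.0 and 29.0 RPKM, and at day 42 they were 12.02, 10.3, 9.24 and 10.3. The injured level was thus highest in the 4 libraries of day 3, and every later library lay below them. In the uninjured region it stayed between 6.58 and 12.1 RPKM over all days, and at day 42 the 2 regions overlapped because of uninjured mouse B12, at 9.25. The log2 difference went from 2.51 ± 0.10 (SE) at day 3 to 1.58, 0.93, 0.95 and 0.45 (SE 0.10 each) on the later days (limma adjusted p at most 0.000237), and at day 42 all 4 mice had the higher value in the scar. With the recovered totals the day 42 difference was 0.84. It fell in the injured region by 1.26 ± 0.12 from day 3 to day 7, by 0.56 ± 0.12 to day 14 and by 0.76 ± 0.12 from day 21 to day 42 (limma adjusted p = 6.51e-08, 0.00112 and 0.000266). The uninjured level did not pass over the days (adjusted p = 0.117).

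Itgav, the alpha v chain that pairs with several beta chains and whose receptors bind vitronectin, osteopontin and latent TGF-beta, was higher throughout. Its injured levels at day 7 were 33.9, 33.7, 36.9 and 32.7 RPKM, against 9.16, 8.36, 8.32 and 10.6 in the uninjured regions. The 20 injured libraries lay between 18.4 and 36.9 RPKM and the 20 uninjured ones between 6.37 and 10.6, with no overlap. The log2 difference was 1.47, 1.81, 1.35, 1.27 and 1.37 on the 5 days (SE 0.07 each; limma adjusted p at most 9.51e-13), a narrower span than that of Itga5. Injured Itgav rose by 0.47 ± 0.08 from day 3 to day 7 and fell by 0.55 ± 0.08 to day 14 (limma adjusted p = 6.95e-05 and 3.68e-05).

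Of the beta chains that pair with alpha v, Itgb3 and Itgb5 moved in opposite directions in the injured region from day 3 to day 7. Itgb3, which also forms the fibrinogen receptor of platelets, stood at day 3 at 9.62, 9.96, 11.1 and 8.93 RPKM in the scars and at 0.830, 0.876, 0.985 and 0.655 in the uninjured regions. The injured levels were 4.28, 4.44, 5.70 and 5.59 RPKM at day 7 and 1.87, 1.499, 2.02 and 1.67 at day 42. No injured library of any day lay below an uninjured library of its own day, and the injured values fell toward the uninjured ones. The means differed 11.8-fold at day 3 and 3.31-fold at day 42. The log2 difference was 2.57, 1.72, 1.15, 0.78 and 0.86 on the 5 days in order (SE 0.08 each; limma adjusted p at most 1.32e-08). On the log2(RPKM + 1) scale such low values understate the fold, and with a pseudocount of 0.1 the differences of days 14, 21 and 42 were 1.83, 1.30 and 1.60. Quantile normalization gave 0.74, 0.33 and 0.45 on these days, still called. Injured Itgb3 fell by 0.86 ± 0.12 from day 3 to day 7 and by 0.64 ± 0.12 to day 14 (limma adjusted p = 8.42e-06 and 0.000404). Both platelet markers in the table, of 5 listed, were higher in the injured region at day 3, where they summed to between 79.6 and 119 RPKM against between 14.97 and 21.8. At day 7 neither passed the test, and the means of Itgb3 in the 2 regions differed 6.18-fold. The platelet chain Itga2b is not a row of the table, and the part of platelets in the Itgb3 level was not tested.

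Itgb5, the beta 5 chain of a vitronectin receptor, had injured levels of 56.2, 50.7, 57.7 and 48.5 RPKM at day 3, against 34.0, 31.7, 34.5 and 35.2. At day 7 the injured levels were 140, 148, 155 and 148 RPKM against 30.4, 34.8, 28.8 and 29.2 in the uninjured region. They reached 185, 167, 213 and 204 RPKM at day 21 and were 129, 115, 114 and 173 at day 42. The injured libraries lay above the uninjured ones on every day, by a small margin at day 3 and a wide one from day 7 on. The log2 difference was 0.64 ± 0.09 (SE) at day 3, then 2.23, 1.89, 2.003 and 1.88 (limma adjusted p at most 2.53e-06). The day 3 value was 1.15 with the recovered totals and 1.22 with quantile normalization. Injured Itgb5 rose by 1.46 ± 0.13 from day 3 to day 7 (limma adjusted p = 3.18e-08) and fell by 0.55 ± 0.13 from day 21 to day 42 (adjusted p = 0.00576). In the uninjured region it fell by 0.42 ± 0.12 from day 21 to day 42 too (adjusted p = 0.0172). That uninjured call ended without day 21 mouse A10 or A11 or day 42 mouse B1 or B9 (adjusted p from 0.0541 to 0.0794), with quantile normalization (-0.27, adjusted p = 0.106) and with only the libraries of these days (adjusted p = 0.0929).

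The log2 ratio of Itgb3 to Itgb5 at day 3 was -2.43 ± 0.087 (SD, n = 4) in the scar and -5.35 ± 0.281 outside it, higher in 4 of 4 mice and without overlap. At day 7 it was -4.89 ± 0.171 against -5.25 ± 0.223, again higher in 4 of 4. On days 14, 21 and 42 it was higher in 2, 1 and 3 of 4 mice, with mean differences of 0.05, -0.61 and -0.12, and the regions overlapped. Over all 20 mice the mean difference was 0.52 ± 1.32 (SD), higher in 14 of 20, and did not pass (two-sided sign-flip permutation test, p = 0.0968, adjusted p = 0.0968). That mean joins days of different direction, and with the ratio taken of RPKM + 0.5 it was -0.02. A permutation test of region labels within days, without the pairs, gave p = 0.0292.

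**Figure D3:**
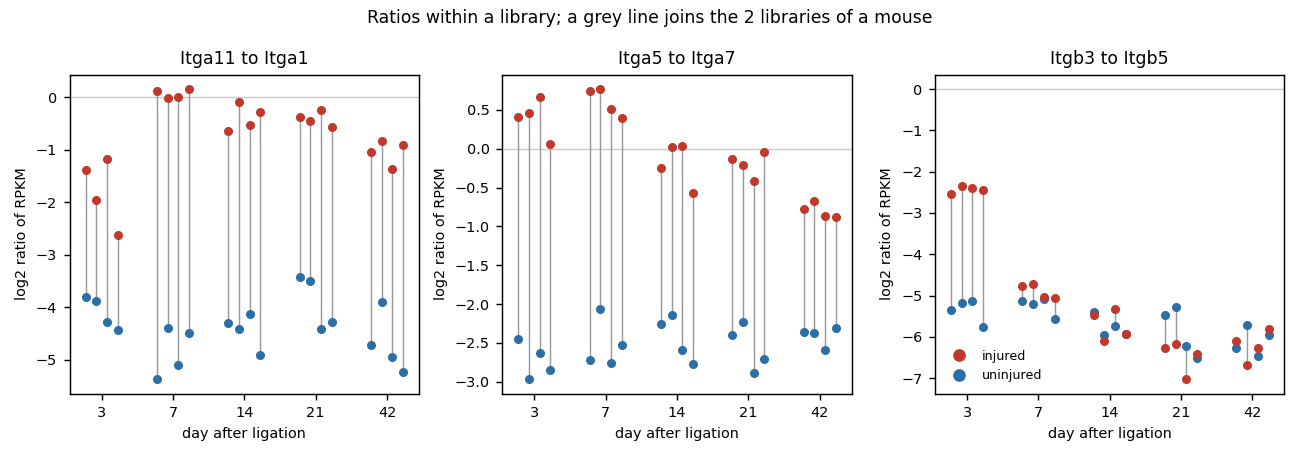
The log2 ratio of RPKM of the 2 named genes within each library against the day after ligation, in 3 panels, with injured libraries in red, uninjured in blue and a grey line between the 2 libraries of a mouse. The first 2 ratios are higher in the injured region in 20 of 20 mice, while the third, Itgb3 to Itgb5, is far apart at day 3 and overlaps from day 14 on.

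Among the members, the laminin receptor chains were those lower in the scar on each day from day 7 on. Outside the members, Itga3, another laminin receptor chain, was higher on all 5 days, by 0.41, 0.26, 0.32, 0.35 and 0.43 (limma adjusted p at most 0.00766). Quantile normalization left only its day 3 call (0.23). Itga7 encodes alpha 7, the main laminin receptor chain of heart and skeletal muscle. At day 7 it was at 14.6, 17.3, 20.2 and 17.0 RPKM in the injured and 45.3, 43.0, 52.5 and 44.2 in the uninjured region, so each injured value was under every uninjured one. At day 3 the injured levels had been 52.7, 42.9, 40.3 and 59.9 RPKM against 62.8, 64.3, 72.2 and 74.2, a gap without overlap but much smaller. From day 14 to day 42 the 12 injured libraries lay between 16.1 and 27.5 RPKM and the 12 uninjured ones between 34.2 and 57.0. The log2 difference was -0.49, -1.37, -1.20, -1.29 and -1.06 on the successive days (SE 0.11 each; limma adjusted p at most 0.000447). The day 3 value turned to 0.03 with the recovered totals and to 0.16 with quantile normalization, neither of them called (adjusted p = 0.826 and 0.268). On days 14, 21 and 42 these scalings gave -0.79, -0.85 and -0.64, and -0.69, -0.72 and -0.70, all still called lower. Injured Itga7 fell by 1.44 ± 0.16 from day 3 to day 7 (limma adjusted p = 2.64e-07), the largest fall of a member at any step. In the uninjured region it fell by 0.55 ± 0.11 at that step and by 0.43 ± 0.11 from day 21 to day 42 (adjusted p = 0.00127 and 0.00761), and quantile normalization ended the second call (-0.27, adjusted p = 0.0548). Summed cardiomyocyte markers in the injured region overlapped between these days, between 1375 and 3005 RPKM at day 3 and between 1296 and 2006 at day 7, and the part of muscle cells in the fall was not tested.

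Itga6, the alpha 6 laminin receptor chain of endothelial and many other cells, changed sides. At day 3 it was at 22.9, 24.9, 26.9 and 26.7 RPKM in the injured region against 15.6, 18.9, 19.6 and 16.8, and all injured values were the higher ones. At day 7 they were 18.7, 19.2, 20.8 and 18.7 RPKM against 25.7, 24.0, 26.0 and 26.2, and all were the lower ones. The log2 difference went from 0.49 ± 0.08 (SE) at day 3 to -0.38, -0.55, -0.73 and -0.59 on the later days (limma adjusted p at most 0.00018), and the change over days had an adjusted p of 6.65e-08. With the recovered totals the differences of days 7, 14 and 42 were -0.14, -0.16 and -0.18 and were no longer called (adjusted p from 0.0633 to 0.154). That of day 21 was -0.30 and still called, and that of day 3 was 0.99. With quantile normalization that of day 7 was -0.04 (adjusted p = 0.647), and those of days 3, 14, 21 and 42 were 0.86, -0.24, -0.43 and -0.38, all called. Injured Itga6 fell by 0.37 ± 0.07 to day 7 and by 0.52 ± 0.07 to day 14 (limma adjusted p = 8.61e-05 and 9.63e-06), while in the uninjured region it rose by 0.50 ± 0.11 to day 7 (adjusted p = 0.0028). The uninjured fall of 0.35 ± 0.11 from day 7 to day 14 (adjusted p = 0.0402) was lost without any one of day 7 mice A7, A10 or A12 or day 14 mice A5 or A6 (adjusted p from 0.0756 to 0.142). At day 3, 2 of 7 endothelial markers stood higher in the scar and 2 lower. On each later day 6 of these markers were lower, with 1 higher on days 7, 14 and 42 and 0 on day 21. Their sum in the injured libraries went from between 189 and 225 RPKM at day 3 to between 104 and 124 at day 7, and their part in the Itga6 values was not tested.

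The ratio of the fibronectin receptor chain Itga5 to the laminin receptor chain Itga7 was higher in the injured region in 20 of 20 mice, by 2.49 ± 0.633 (SD) on the log2 scale. The two-sided sign-flip permutation p was 1e-05, the smallest possible, and 1e-05 after adjustment. Itga5 was higher and Itga7 lower in the scar of every mouse, so the direction of the ratio was set by those values and the test adds no separate support. At days 3 and 7 the mean injured ratio was above 0, at 0.40 ± 0.248 and 0.61 ± 0.184 (SD, n = 4), and at day 42 it was -0.80 ± 0.095. The uninjured ratio was between -2.72 ± 0.229 and -2.41 ± 0.126 over the 5 days. The ranges of the regions did not overlap on any day.

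Itgb1 encodes beta 1, the shared partner of most alpha chains described here, and had the highest level of the members in both regions on all days except for injured day 21, where Itgb5 was higher. Its injured levels were 238, 247, 213 and 240 RPKM at day 3 and 267, 281, 280 and 259 at day 7, against 185, 188, 169 and 146 and against 216, 206, 201 and 191. The injured values were the higher ones on both days, with log2 differences of 0.45 ± 0.09 (SE) and 0.42 ± 0.09 (limma adjusted p = 6.91e-05 and 0.000173). These sizes depend on scaling: the recovered totals gave 0.97, 0.67 and 0.70 on days 3, 7 and 42, and quantile normalization 1.46, 1.204 and 1.19. At day 14 the difference of 0.19 did not pass (adjusted p = 0.0543), although all 4 mice were higher in the injured region. It passed under several other settings there (limma adjusted p from 1.19e-10 to 0.0496). All 3 other scalings were among them: 0.60 with the recovered totals, 1.16 with quantile normalization and 0.22 with the same median RPKM in every library. So were the fits without the block (adjusted p = 0.032) and with the mouse as a random effect (adjusted p = 0.0194). At day 21 it was -0.07 (adjusted p = 0.468), where the recovered totals gave 0.38 (adjusted p = 0.000575) and quantile normalization 1.04. At day 42 it was 0.27 ± 0.09 (adjusted p = 0.00812). Injured Itgb1 rose by 0.21 ± 0.09 from day 3 to day 7 and fell by 0.34 ± 0.09 to day 14 (limma adjusted p = 0.0367 and 0.00314), and uninjured Itgb1 rose by 0.25 ± 0.08 to day 7 (adjusted p = 0.032). The call of the injured rise ended without day 3 mouse A4 or A7 or day 7 mouse A9 or A10 (adjusted p from 0.0521 to 0.119). That of the uninjured rise ended without day 3 mouse A7 or A8 or day 7 mouse A7, A9 or A10 (adjusted p from 0.0506 to 0.141). With only the libraries of these days neither was called (adjusted p = 0.126 and 0.0899), and the injured rise was not called with quantile normalization (0.16) or the recovered totals (0.12) either.

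Itgb2, the beta chain of leukocyte integrins, had the largest log2(RPKM + 1) difference of the members at day 3, while by the means the fold was 10.6 for it and 11.8 for Itgb3. Its injured levels were 31.6, 43.7, 53.8 and 31.2 RPKM, against 3.67, 3.30, 4.52 and 3.57 in the uninjured region. At day 7 they were 19.8, 22.7, 39.0 and 29.7 RPKM and at day 42 9.28, 10.2, 11.1 and 12.3, and the highest uninjured value of any day was 4.52. The 20 injured libraries thus all lay above the 20 uninjured ones, with the widest spread between mice at days 3 and 7. The log2 difference was 3.08, 2.64, 1.69, 1.52 and 1.57 over the 5 days (SE 0.12 each; limma adjusted p at most 1.15e-10). Injured Itgb2 fell by 0.52 ± 0.18 to day 7 and by 1.17 ± 0.18 to day 14 (limma adjusted p = 0.0175 and 5.61e-05). The first of these calls ended without day 3 mouse A5 or A7 or day 7 mouse A7 or A9 (adjusted p from 0.0513 to 0.0805) and with only the libraries of these days (adjusted p = 0.0659).

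The alpha partners of beta 2 were higher in the injured region on each day as well. Itgam, alpha M of monocytes and neutrophils, was at 8.64 ± 1.89 RPKM at day 3 against 0.810 ± 0.142 and at 1.76 ± 0.388 at day 14 (log2 differences of 2.40 ± 0.11 and 0.76 ± 0.11 SE). Itgax, alpha X of macrophages and dendritic cells, was at 6.67 ± 1.94 against 0.333 ± 0.083 RPKM at day 3 and at 2.79 ± 0.624 at day 14 (2.49 ± 0.11 and 1.52 ± 0.11). Itgal, alpha L of lymphocytes and other leukocytes, had its largest difference at day 3, 1.39 ± 0.08. For the 3 genes the limma adjusted p on days 3 and 14 was at most 5.81e-06, but quantile normalization ended the calls of Itgal on days 14, 21 and 42 (0.08, 0.12 and 0.14) and gave 0.28 for Itgam at day 14. Monocyte and macrophage markers summed to between 915 and 1393 RPKM in the injured region at day 3, to between 1389 and 2166 at day 7 and to between 573 and 859 at day 14. Neutrophil markers, 4 of 7 listed, summed to between 28.1 and 74.2 RPKM at day 3 and to between 7.14 and 14.8 at day 7. The part of either cell type in the Itgb2 level was not tested.

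By step, the members moved most between day 3 and day 7. All 10 changed over the days in the injured region, against 87.6% of all genes. From day 3 to day 7, 5 rose and 5 fell (27.7% and 32.7% of all genes). From day 7 to day 14, 0 rose and 7 fell, against 21.9% and 21.2% of all genes, and the count of rises at an unadjusted p under 0.05 was also 0. From day 14 to day 21, limma called 0 members in either direction, as it called 0% of all genes both ways. At an unadjusted p under 0.05, 1 member rose and 3 fell at that step. From day 21 to day 42, 0 rose and 3 fell, namely Itga5, Itga11 and Itgb5 (11.2% and 13.6% of all genes), with 0 rises at an unadjusted p as well.

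In the uninjured region 5 members changed over the days, against 47.2% of all genes. From day 3 to day 7, 3 rose and 1 fell (10.4% and 14.5% of all genes). From day 7 to day 14, 0 rose and 1 fell (7.49% and 5.56%), and from day 14 to day 21 none was called in either direction (0.00878% and 0%). From day 21 to day 42, 0 rose and 2 fell (10.4% and 10.1%). The unadjusted counts of rises for the last 3 steps were 1, 1 and 0, and 0 members fell from day 14 to day 21 at an unadjusted p under 0.05. Within day 21, uninjured Itgb3 was at 0.550 and 0.479 RPKM in mice A3 and A4 and at 1.21 and 1.33 in mice A10 and A11, and Itga11 at 1.15 and 1.23 against 2.33 and 2.02. The higher pair of mice had Xist RNA, which marks females, and the lower pair did not. Other days did not all show that split. At day 3 uninjured mouse A4, the only mouse with Xist RNA, lay among the others for Itgb3 and was highest for Itga11, at 0.830 and 1.64 RPKM. At day 7 mice with and without it overlapped for both genes. Day 14 had the same direction as day 21: uninjured mouse A6, the only mouse without Xist RNA, was lowest for both genes, at 0.628 and 0.817 RPKM. At day 42 uninjured mouse B12, also without it, was highest for both, at 0.842 and 1.58 RPKM. Mice B3 and B9, with Xist RNA, were at 0.446 and 0.437 RPKM of Itgb3 and at 0.852 and 0.682 of Itga11. Xist RNA was found in 10 of the 20 mice, unevenly over the days, so some steps between days also differ in sex makeup. The part of sex in these values was not tested.

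The makeup of the chains differed between the regions. Among the 6 alpha members, Itga7 held 53.8% ± 2.67 (SD, n = 4) of the summed RPKM in the uninjured region at day 3 and between 37.5% and 45.8% later, the largest share on each day. In the injured region the largest share was that of Itga5 at day 3, 33.8% ± 2.03, of Itgav at day 7, 22.6% ± 0.919, and of Itga1 from day 14 on, up to 25.7% ± 1.24 at day 42. Itga11 held between 0.982% and 1.44% in the uninjured and 18.3% ± 1.64 in the injured region at day 7. Among the 4 beta members, Itgb1 held between 78.6% and 85.3% in the uninjured region. In the injured region its share went from 69.4% ± 4.15 at day 3 to 46.7% ± 2.94 at day 21, while that of Itgb5 went from 15.8% ± 1.40 to 49.8% ± 2.84. The summed alpha members stood at 189 ± 12.1 RPKM in the injured and 127 ± 5.18 in the uninjured region at day 3 and at 99.2 ± 4.54 and 98.7 ± 9.81 at day 42. The summed beta members stood at 452 ± 21.1 against 239 ± 11.5 RPKM at day 7. These sums and shares are descriptions and were not tested.

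**Figure D4:**
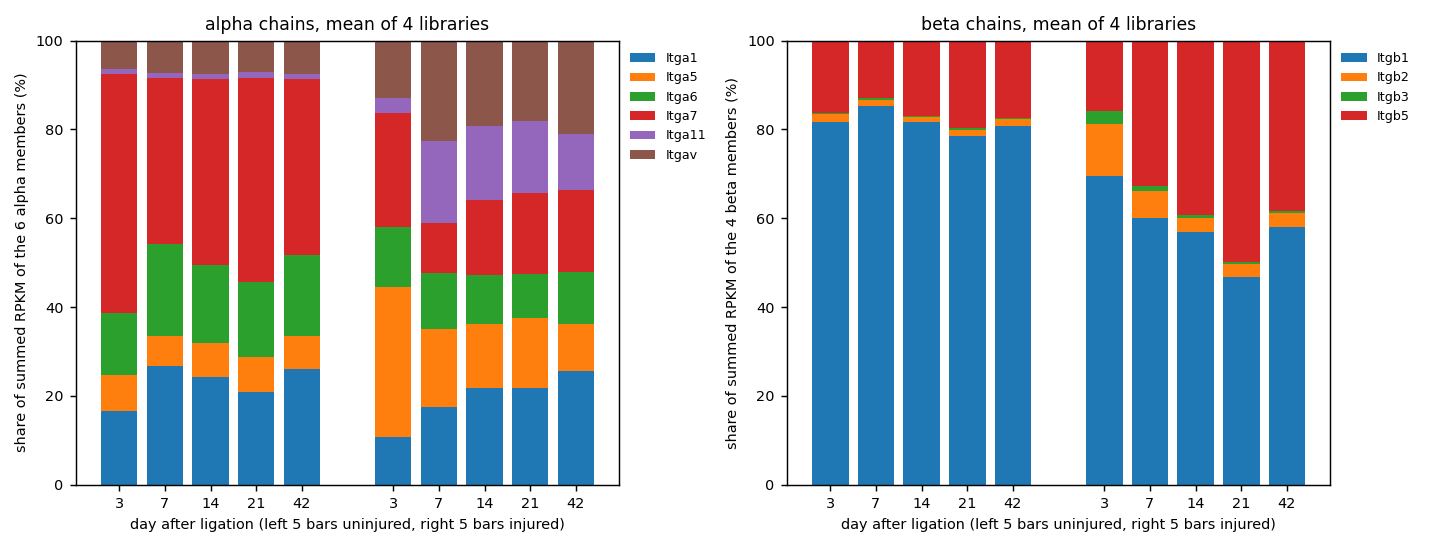
Stacked bars of the mean share, in percent, of each member in the summed RPKM of the 6 alpha members on the left and the 4 beta members on the right, for the 5 days in the uninjured and then the injured region (means of 4 libraries). Itga7 is the largest alpha part of every uninjured bar, and the Itgb5 part of the injured beta bars goes from 15.8% at day 3 to 49.8% at day 21.

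Other integrin subunits were mostly higher in the scar too. Of 16 listed, 13 were in the table and tested, and 9, 11, 12, 12 and 12 of them were higher and 2, 1, 1, 1 and 1 lower on days 3, 7, 14, 21 and 42. The shares of all genes were between 40.5% and 44.1% higher and between 38.7% and 41% lower. No call changed its direction under 3 other scalings, but quantile normalization left 9, 9, 10, 10 and 10 higher: Itga3, a laminin receptor chain, was no longer called on days 7, 14, 21 and 42 (0.04, 0.04, 0.05 and 0.17), nor Itga8 at day 7 (0.17, adjusted p = 0.203). At day 3 Itgb8 was at 0.40 with quantile normalization and Itga8 at -0.39 with the recovered totals, both still called. Itgb6, the beta chain of an alpha v receptor known from epithelia, was lower on each day, with day 3 means of 2.25 ± 0.603 against 9.84 ± 2.59 RPKM and day 7 means of 0.415 ± 0.12 against 7.07 ± 1.14 (log2 differences of -1.72 ± 0.13 and -2.50 ± 0.13 SE). Itgb8, another alpha v partner, which activates latent TGF-beta, had day 3 means of 2.05 ± 0.399 against 0.793 ± 0.126 RPKM and day 14 means of 6.64 ± 0.937 against 0.684 ± 0.143 (0.76 ± 0.13 and 2.18 ± 0.13). Itga8, which pairs with beta 1 and binds nephronectin, changed sides, from 1.07 ± 0.175 against 2.38 ± 0.263 RPKM at day 3 to 8.16 ± 1.21 against 1.95 ± 0.424 at day 42 (-0.71 ± 0.11 and 1.64 ± 0.11). All of these passed (limma adjusted p at most 9.29e-06). Itga4, the VCAM-1 and fibronectin receptor chain of leukocytes, was higher on all days, with its largest difference at day 7, 1.74 ± 0.08 SE (adjusted p = 5.15e-14). Itga9 did not pass at days 3 and 7 (0.02 and -0.09, limma adjusted p = 0.857 and 0.462). It was higher on days 14, 21 and 42 (0.32, 0.32 and 0.63, adjusted p at most 0.0141). Quantile normalization and the recovered totals called it higher at day 3 too (0.28 and 0.51), and gave 0.74 and 0.72 at day 14.

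**Figure D5:**
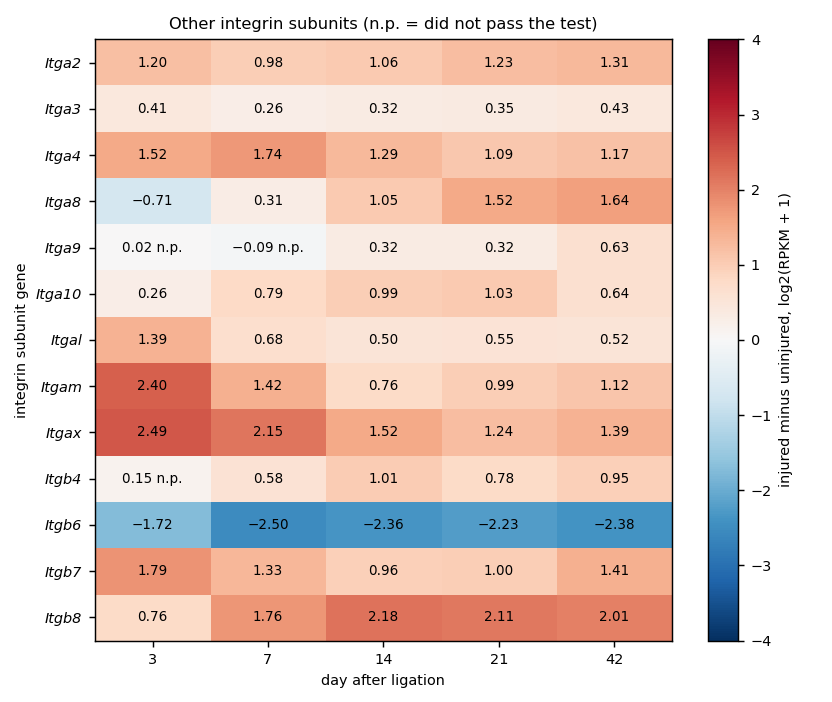
Injured minus uninjured log2(RPKM + 1) for the 13 integrin subunits outside the members that were tested, by day after ligation, from the same limma fit, with red for higher and blue for lower in the injured region and n.p. where the test was not passed. Itgb6 is lower on all 5 days, from -1.72 to -2.50, and Itga8 goes from -0.71 at day 3 to 1.64 at day 42.

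Integrin ligands stood mostly on the higher side. Of 31 listed, 29 were tested, and 22, 24, 24, 23 and 24 were higher and 6, 2, 2, 3 and 4 lower in the injured region on the 5 days, against 40.5% to 44.1% of all genes higher and 38.7% to 41% lower, with medians from 0.96 to 1.36. Spp1, osteopontin, which binds alpha v and alpha 4 and alpha 9 receptors, was at 907 ± 310 RPKM at day 3 and 39.3 ± 9.90 at day 42, against 9.04 ± 4.62 and 1.09 ± 0.874. Thbs1, thrombospondin 1, was at 493 ± 147 against 8.93 ± 1.21 RPKM at day 7. The lowest ligands were Vtn, vitronectin, at 4.42 ± 0.441 against 16.9 ± 1.96 RPKM at day 7 (log2 difference of -1.73 ± 0.09, limma adjusted p = 2.1e-13), and Icam2, a ligand of beta 2 integrins on endothelium. Icam2 was higher at day 3, by 0.25 ± 0.09 (adjusted p = 0.0188; 0.44 with quantile normalization and 0.73 with the recovered totals), and lower at day 7, by -1.63 ± 0.09 (adjusted p = 7.52e-13). Of the 29, 21 rose and 4 fell in the injured region from day 3 to day 7, against 27.7% and 32.7% of all genes. From day 21 to day 42, 0 rose and 14 fell (11.2% and 13.6% of all genes).

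The list of adhesion adaptors and activators held 25 genes, of which 24 were tested. Of these, 14, 13, 14, 14 and 13 were higher and 7, 7, 8, 8 and 8 lower on the 5 days. These are 54.2% to 58.3% higher and 29.2% to 33.3% lower, not far from the 40.5% to 44.1% and 38.7% to 41% of all genes. Actn1, alpha-actinin 1, which cross-links actin at adhesions, was at 92.8 ± 4.34 against 10.98 ± 1.09 RPKM at day 3, and Tns3, the adhesion protein tensin 3, at 24.9 ± 3.14 against 4.28 ± 0.322 at day 7 (log2 differences of 2.97 ± 0.12 and 2.29 ± 0.09). Itgb1bp2, the muscle protein melusin that binds the beta 1 tail, was the lowest, with day 3 means of 10.4 ± 3.67 against 128 ± 16.1 RPKM and day 42 means of 20.2 ± 5.17 against 131 ± 3.43 (-3.56 ± 0.18 and -2.66 ± 0.18). Lims2, a partner of integrin-linked kinase, was at -1.63 ± 0.10 at day 3 and -2.01 ± 0.10 at day 7. Each passed on these days (limma adjusted p at most 1.71e-11). With the recovered totals 17, 14, 15, 15 and 15 genes of the list were higher and 3, 6, 6, 6 and 4 lower, where 54% to 63.1% of all genes were higher and 23.9% to 30.1% lower.

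Among 16 kinases and signalling proteins of adhesions, all tested, 13, 9, 8, 9 and 9 were higher and 0, 3, 2, 3 and 3 lower on the 5 days, against 44.1%, 43.6%, 42.4%, 43.1% and 40.5% of all genes higher and 38.7% to 41% lower. Vav1, an exchange factor of blood cells, was at 14.5 ± 3.19 against 1.74 ± 0.219 RPKM at day 3, and Ptk2b, the adhesion kinase Pyk2, at 8.97 ± 0.867 against 1.19 ± 0.205 at day 7 (log2 differences of 2.48 ± 0.12 and 2.19 ± 0.08, limma adjusted p at most 5.49e-14). The kinase gene Fyn was lower from day 7 on, at -0.57 ± 0.06 at day 7 and -0.27 ± 0.06 at day 42 (adjusted p = 2.05e-08 and 0.00048). Arhgef7, an exchange factor at adhesions, was lower at days 7 and 42 only, by -0.28 ± 0.07 and -0.21 ± 0.07 (adjusted p = 0.000427 and 0.00538). With the recovered totals the day 42 value of Fyn turned to 0.14 and was not called (adjusted p = 0.0665), nor was that of day 14 (-0.12). Arhgef7 under that scaling was not called at day 7 (-0.06) and was called higher on days 14, 21 and 42 (0.27, 0.35 and 0.17, adjusted p = 0.00144, 0.000113 and 0.033), and both were called higher at day 3 (0.38 and 0.47). Quantile normalization ended the day 42 call of Fyn (-0.10, adjusted p = 0.165). The recovered totals gave 16, 12, 15, 15 and 15 of the 16 genes higher and 0, 1, 0, 1 and 0 lower, where 54% to 63.1% of all genes were higher. Quantile normalization gave 14, 14, 14, 14 and 13 higher and 0, 2, 1, 1 and 1 lower, where 39.1% to 43.3% were higher.

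The genes most like each member were found by Pearson correlation of log2(RPKM + 1) over the 20 libraries of a region, which share their 5 days, so a like course over days is enough to give a high value. In the injured region Itga6 was closest to the cell division genes Cdk1 (0.991), Ckap2 (0.987) and Gas2l3 (0.987). Itga5 was closest to Tnfaip1 (0.986), Sema7a (0.982) and Fkbp1a (0.978), Itga7 to Flnc, the muscle filamin (0.974), Jup (0.969) and Rapgef1 (0.967). Itga11 was closest to Fat1 (0.976), Ltbp2 (0.973) and Mmp23 (0.962), Itgb5 to Tmem119 (0.972), Adarb1 (0.966) and Tmem98 (0.966), and Itgb2 to Cotl1 (0.986), Galnt6 (0.985) and Capg (0.983). Itgb3 was close to Mapk6 (0.979) and Adamts4 (0.976), and Itgav to Glipr1 (0.955), Specc1 (0.954) and Adamts12 (0.947). Itgb1 reached 0.931 with Tmem123, 0.923 with Wbp5 and 0.921 with Cmpk1, and Itga1 reached 0.882 with Snai2, 0.880 with Trp53inp1 and 0.875 with Ankmy2. In the uninjured region the highest values were lower for 9 of 10 members, Itga1 being the other. There Itga6 was closest to Myo1e (0.924), Vash1 (0.923) and Cd93 (0.916), the last 2 being genes of endothelium, and Itgb3 to Pcolce (0.913), Actn1 (0.910) and Emilin1 (0.896).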

How the data were processed

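The authors deposited 1 table of RPKM values for 11450 genes. Per the submitters' processing notes the tools were STAR and edgeR and the build mm10, with no version or role stated. The counting method is not given in the sources used here. Per the labels' protocols, RNA was extracted with an RNeasy Mini kit for TruSeq RNA libraries. Per the series' design text both regions came from the same heart, so the mouse pairs the libraries (deviations of a mouse's 2 libraries correlated at 0.148 to 0.540).

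From these values log2(RPKM + 1) was tested with limma 3.58.1 (R 4.3.3, statmod 1.5.0), with trend and robust moderation. Regions were compared in 1 fit of the 40 libraries, blocked by mouse, and days in a fit of 20 libraries per region (15 residual degrees of freedom in each). Ratios were tested by sign flips over mice (Python 3.11.15, numpy 2.4.6). Errors of log2 differences are standard errors. The fits were tested on simulated data. Whole reads were recovered for 99.9% of genes, to within 0.01 of a read. Relative to the size that the RPKM imply, recovered totals had a median of 1.02 in injured and 1.35 in uninjured libraries (first library 1), and what made this gap is not known.

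The members and gene lists were chosen with earlier results of these data known. Genes named outside the members are the 2 highest and 2 lowest of each list by mean region difference over the days, the 3 most like each member in a region (1 of them is not reported here), and other integrin subunits, of which those described were chosen after their values were seen. Alternatives were a pseudocount of 0.1, no low filter, 3 other scalings, no moderation, other uses of the mouse, Xist as a covariate, only the compared days, and each mouse left out. The other scalings of the gene lists were added after the data were seen.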

Additional observations from a re-analysis of the deposited data

Results flagged for a closer look

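For 9 of the 10 members the difference between the regions was not the same on the 5 days. The limma F test of that change gave adjusted p values of 1.29e-09 for Itga5, 6.65e-08 for Itga6, 0.000385 for Itga7, 2.99e-07 for Itga11 and 0.000811 for Itgav. They were 0.00551 for Itgb1, 7.28e-08 for Itgb2, 2.88e-10 for Itgb3 and 2.35e-08 for Itgb5. Such a change was found for 74.3% of all genes, and Itga1 did not pass (adjusted p = 0.0761).

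In 6 of the 100 groups of 4 libraries, a single library stood apart from the other 3 by Dixon's criterion, where chance gives about 5. Uninjured day 42 mouse B12 was at 0.842 RPKM of Itgb3, where the others lay between 0.410 and 0.446, and at 9.25 RPKM of Itga5, where they lay between 6.58 and 6.93. In the injured region of the same mouse Itga1 was at 28.5 RPKM against 24.3 to 24.8. Injured Itga1 was at 24.8 RPKM in day 7 mouse A10 against 26.9 to 27.3, and injured Itga7 at 16.1 RPKM in day 21 mouse A4 against 22.6 to 23.4. Injured Itga11 was at 30.4 RPKM in day 7 mouse A9 against 26.6 to 27.2.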

How the results depend on the processing

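Counts of members called between the regions, both directions summed, stayed within 1.5 times under every setting run. The lower count went from 1 to 0 at day 3 and from 3 to 1 at day 7 with quantile normalization and with the recovered totals, and from 2 to 1 at days 14 and 42 with the latter, and the fits without the replicate block gave 9, 10, 9, 8 and 9 members on the 5 days. The unpaired permutation test of Itgb3 to Itgb5 without the replicate block kept the mean of 0.52 and passed (p = 0.0292), and RPKM + 0.5 turned that mean to -0.018 (permutation p = 0.948). Leaving out a mouse moved it between 0.37 and 0.60 without a pass.

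With quantile normalization the difference turned to 0.28, 0.078 and 0.41 for Itga1 at days 3, 7 and 14, to 0.16 for Itga7 at day 3 and to 1.04 for Itgb1 at day 21. With the recovered totals it turned to 0.45 and 0.34 for Itga1 at days 3 and 14, to 0.028 for Itga7 at day 3 and to 0.38 for Itgb1 at day 21. For the other members 0 directions turned under these scalings, and the cause was not tested. Leaving out a mouse gave Itga1 differences from -0.16 to 0.021 at day 3 and from -0.081 to 0.036 at day 42, none called.

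The 1 uninjured member called from day 7 to day 14 became 3 with quantile normalization and 2 with equal medians, with the recovered totals, with only the compared days and with Xist as a covariate, and 0 to 3 without a mouse. The 2 called from day 21 to day 42 became 1 with only the compared days and 1 to 4 without a mouse. With quantile normalization both of them, Itga7 and Itgb5, lost their calls (limma adjusted p = 0.0548 and 0.106). The count itself stayed within 1.5 times there, so it came from other members. Itgb3 and Itga11 rest on the fewest reads, 43 and 61 in their lowest library, and the size of difference that this depth can show was not tested.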
